A study of Mus musculus with 6 samples.

Results

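Acetylated histone H3 (H3ac) over 8 genes of the cartilage lineage was measured by CUT&RUN in cultured mouse mesenchymal stem cells (MSCs). In CUT&RUN, an antibody tethers a nuclease to the marked chromatin, and the released DNA is sequenced. The genes were the transcription factors Sox9, Sox5 and Sox6, the matrix genes Acan, Comp and Matn3, and the signalling genes Ihh and Pth1r. A region of the table belonged to a gene when its interval (mm10) overlapped the gene body extended by 5 kb on both sides, with gene bodies from GENCODE release M21. By this rule 28 of the 24431 regions belonged to the set, and they lay at 7 of the 8 genes. Ihh had no region. The libraries formed 3 groups with 2 libraries in each. The mice behind the Young cultures were 3 to 5 months old, and those behind the Old cultures 18 to 22 months, both untreated. The OldAcetate cultures, from the same older age range (18 to 22 months), were given 5 mM sodium acetate for 3 days. All cells of the 3 groups were grown at 2% oxygen in αMEM with serum and antibiotics. Strain, sex, genotype and the number of animals per culture are not given in the sources used here. The labels do not say whether replicates came from separate animals or cultures, so p-values measure the spread between these libraries, which may be technical.

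Cartilage forms when mesenchymal progenitors condense and become chondrocytes. SOX9 is required for this step, and SOX5 and SOX6 bind DNA beside it at the enhancers of cartilage matrix genes. Aggrecan, COMP and matrilin-3, the products of Acan, Comp and Matn3, are components of the matrix that chondrocytes lay down. Indian hedgehog (Ihh) is made by chondrocytes about to enlarge, and through PTHrP, the ligand of the receptor encoded by Pth1r, it sets the pace of their maturation. MSCs in culture are not chondrocytes but can be induced to form them. Acetylation of histone H3 marks active promoters and enhancers, and cells can turn acetate into acetyl-CoA, from which histones receive their acetyl groups. The design therefore allows the mark over these genes to be compared with age and with acetate in old cells.

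The library totals lay between 2163351 and 3039481 reads, and the median member region held between 33 and 60 reads depending on the library. Values are RPM, reads scaled to the library total, and take no account of region length unless given per kb. Between 45.9% and 64.8% of the reads of a library lay in regions, with 64.8% and 57.8% for the Young libraries, 49.9% and 45.9% for the Old ones, and 57.3% and 56.3% after acetate. All 8 MSC markers examined (such as Ly6a, Pdgfra and Thy1) had a region over a start site. This was so for 3 of 8 haematopoietic markers (Cd68, Csf1r and Spi1, but not Ptprc or Itgam) and for 0 of 4 endothelial markers, of which Pecam1 and Kdr had regions away from their starts. It was so for 2 of 4 osteoblast markers and 3 of 4 adipocyte markers. Of 8 genes of differentiated chondrocytes, 4 had a start-site region (Col2a1, Col10a1, Col11a2 and Hapln1). Col9a1, Matn1 and Ucma had no region, and Cnmd had a region away from its start.

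The promoter sequences of the set were examined first, because some starts lay inside an H3ac region and others did not. RefSeq promoter windows (GRCm38.p6, 250 bases before to 50 bases after a start) were found for Ihh, Sox5, Sox6, Acan, Matn3 and Pth1r. No window was found for Sox9 and Comp. The 5 windows below, read 5′ to 3′ on the strand of the gene, show starts without a region (Ihh and the start of the short Sox5 transcripts) beside starts inside one. The Sox5 long-transcript window was read from the genome (GRCm38) at the most 5′ of these starts. Capitals mark the GC box GGGCGG or its reverse complement CCGCCC, and the SOX core ACAAT or its reverse complement ATTGT. Runs of capitals can hold overlapping matches.
Ihh, chr1:74951623-74951922, minus strand: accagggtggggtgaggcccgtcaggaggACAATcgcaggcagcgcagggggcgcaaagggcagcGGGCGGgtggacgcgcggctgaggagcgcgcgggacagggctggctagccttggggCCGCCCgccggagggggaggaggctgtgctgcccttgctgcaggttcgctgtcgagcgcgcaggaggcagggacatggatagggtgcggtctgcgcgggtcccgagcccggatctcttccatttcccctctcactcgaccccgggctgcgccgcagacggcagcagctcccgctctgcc
Sox5 short transcripts, chr6:143947057-143947356, minus strand: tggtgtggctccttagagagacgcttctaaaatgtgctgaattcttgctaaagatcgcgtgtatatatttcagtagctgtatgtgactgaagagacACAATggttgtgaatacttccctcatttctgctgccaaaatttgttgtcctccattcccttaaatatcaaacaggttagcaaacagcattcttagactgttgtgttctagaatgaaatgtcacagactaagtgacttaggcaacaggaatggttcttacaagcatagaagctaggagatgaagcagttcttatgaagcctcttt
Sox5 long transcripts, chr6:144209519-144209818, minus strand: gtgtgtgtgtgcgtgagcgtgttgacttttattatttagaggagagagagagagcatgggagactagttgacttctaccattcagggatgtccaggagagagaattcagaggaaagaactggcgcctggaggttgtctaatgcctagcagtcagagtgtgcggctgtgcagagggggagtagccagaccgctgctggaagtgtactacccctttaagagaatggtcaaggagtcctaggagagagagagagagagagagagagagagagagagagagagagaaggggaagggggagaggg
Acan, chr7:79052976-79053275, plus strand: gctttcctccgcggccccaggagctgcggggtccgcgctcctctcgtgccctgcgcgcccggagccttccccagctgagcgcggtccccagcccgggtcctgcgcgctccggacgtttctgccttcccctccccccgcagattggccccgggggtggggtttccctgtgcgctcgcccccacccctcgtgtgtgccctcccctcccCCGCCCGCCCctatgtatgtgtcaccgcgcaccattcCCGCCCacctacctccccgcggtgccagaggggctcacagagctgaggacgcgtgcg
Matn3, chr12:8947679-8947978, plus strand: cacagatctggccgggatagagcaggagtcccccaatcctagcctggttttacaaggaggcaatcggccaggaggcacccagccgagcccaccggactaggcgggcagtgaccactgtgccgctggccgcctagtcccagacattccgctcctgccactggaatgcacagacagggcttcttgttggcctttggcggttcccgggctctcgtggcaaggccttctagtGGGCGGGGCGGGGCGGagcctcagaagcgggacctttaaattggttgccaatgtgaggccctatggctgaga

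The Ihh window held 2 GC boxes and 1 SOX core, and its GC content was 72.7%. Its ratio of observed to expected CpG was 0.774, at percentile 77 of all 32851 promoter windows of this length, whose median was 0.384. The Acan window was of the same kind, with 3 GC boxes, 74% GC and a CpG ratio of 0.795, but unlike the Ihh window it lay in a region. The Matn3 window held 3 overlapping GC boxes and had a CpG ratio of 0.511. The Sox5 short-transcript window held no GC box and 1 SOX core, with 39.7% GC. The Sox5 long-transcript window held neither motif, with 52% GC. Of the Sox6 windows not shown, those inside a region held 0, 0 and 2 SOX cores, and those outside held 2, 0 and 3. The Pth1r windows, all inside a region, held none. Most windows outside a region thus held a SOX core and most inside one held none, with exceptions on both sides. The windows are few and differ in GC content, and this lean was not tested. Of all promoter windows, 35.7% held a GC box and 31% a SOX core on either strand. These matches describe letters and were not tested as binding sites.

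Ihh (chr1:74945315-74951672, minus strand) had no region within 50 kb on either side, and the nearest one lay 61815 bp away. The table lists only intervals called as regions, so it gives no H3ac value over Ihh and no limit for it. Absence of a region was common, since 35.5% of the 21951 protein-coding genes had none.

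Each of the other 7 genes had a region over a start site of a coding transcript. The order of the 7 by mean level per kb of region, over all 6 libraries, was Sox6 (4.11 RPM per kb), Sox9 (3.57), Comp (3.06), Sox5 (2.82), Pth1r (2.63), Matn3 (2.60) and Acan (2.16). The ranges over the 6 libraries of every pair of neighbours in this order overlapped. Sox6, between 3.35 and 4.66 RPM per kb, did not overlap Acan, between 1.33 and 2.64 RPM per kb. Among the 11018 regions over start sites of protein-coding genes, whose median was 3.05 RPM per kb, Sox6 was at percentile 89.8 and Sox9 at percentile 75.5. Sox5 was at percentile 36.8, Pth1r at percentile 25.7, Matn3 at percentile 23.5 and Acan at percentile 5.78. The regions of Sox6 and Pth1r also cover starts of other genes (1110004F10Rik and Myl3). The regions also differed in length, from 2500 bp at Matn3 (percentile 2.05 of start-site regions) to 27500 bp at Pth1r (percentile 95.1). The regions of Sox9, Sox5 and Sox6, between 10500 and 12000 bp, were longer than those of Acan (5000 bp) and Matn3. The Comp region had 11000 bp and was at percentile 50.8 for density.

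**Figure D1:**
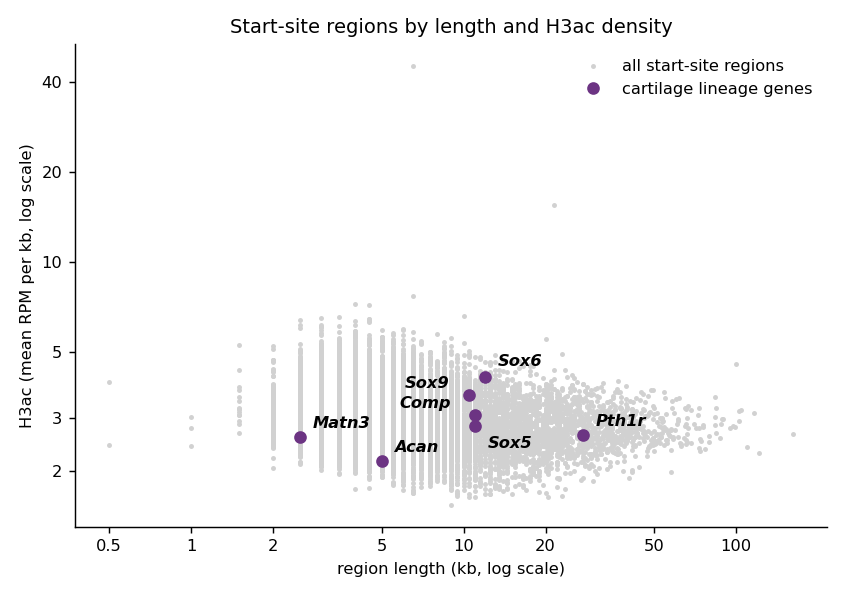
H3ac density (mean RPM per kb of region over 6 libraries, vertical log axis) against region length (kb, horizontal log axis) for all 11018 start-site regions (grey) and the 7 start-site regions of the cartilage lineage genes (purple). Sox6 (4.11 RPM per kb) sits highest of the 7, Acan (2.16 RPM per kb) lowest, and Pth1r (27500 bp) is the longest. The Sox6 and Pth1r regions also cover starts of other genes.

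**Figure D2:**
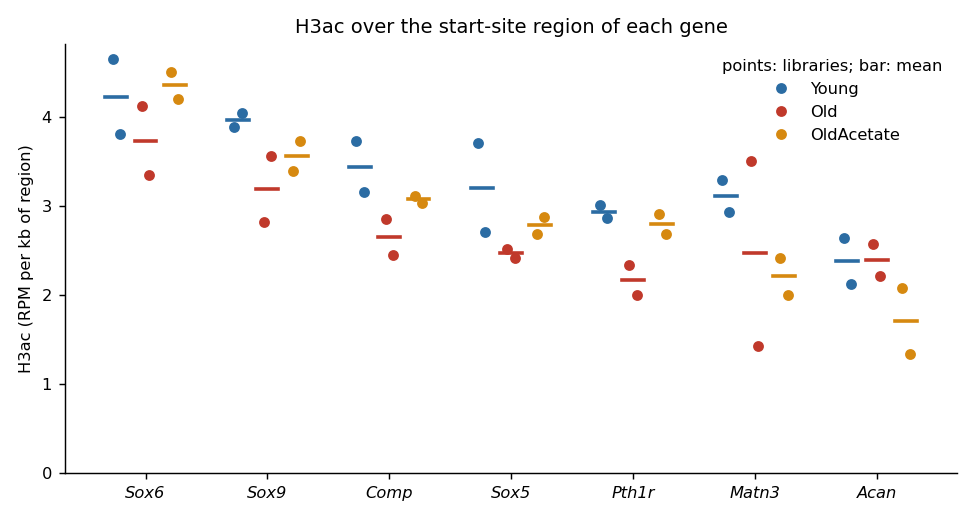
H3ac over the start-site region of each gene, in RPM per kb as deposited, with 1 point per library, a bar at the mean of each group and genes ordered by mean level over all libraries. The Young and Old points overlap at Sox6, Acan and Matn3, and the OldAcetate points lie below both other groups at Acan.

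Sox9 had a single region, chr11:112779001-112789500, which covered the whole gene and its only coding start. It gave 40.8 and 42.5 RPM in Young, 29.6 and 37.4 RPM in Old, and 35.6 and 39.2 RPM in OldAcetate. Both Old libraries and both OldAcetate libraries were below both Young libraries on this scale, and Old and OldAcetate overlapped. After scaling each library to the median of all regions, Old vs Young gave a log2 change of 0.03 (SE 0.16), and for OldAcetate it was -0.07 (SE 0.16) against Old and -0.04 (SE 0.16) against Young. The scaled groups overlapped in each of these comparisons. Over the 6 libraries, the start-site regions with the most similar scaled profile to that of Sox9 were those of Atp23 (Pearson r = 0.994), Trim7 (0.988) and Ube2f (0.985). They were found among 6674 regions of at least the median level, of which 51 had r above 0.9, and the points share library and depth.

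Sox5 (chr6:143828425-144781977, minus strand) spans 953553 bp and held 14 regions, a number reached by 16 protein-coding genes. Of the 230 protein-coding genes of 500 kb or more, 14 had at least as many, and the median was 2. One region covered a coding start. It was chr6:144200501-144211500, over the starts of 4 long coding transcripts about 576 kb into the gene. Its values were 40.8 and 29.8 RPM in Young, 27.7 and 26.6 RPM in Old, and 29.6 and 31.7 RPM in OldAcetate. Old was below both other groups here and Young and OldAcetate overlapped, while the scaled log2 changes were between -0.07 and 0.00 (SE 0.17). The 3 shorter coding transcripts, whose starts lie downstream between 143947088 and 143947106, had no region over their starts. A separate region, chr6:144779501-144783500, lay at the 5′ end of the gene, over no coding start. It was the richest of the 14 in GC, at 52.4%, and the poorest was an intronic region with 40.8%.

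Sox6 (chr7:115470872-116038796, minus strand) spans 567925 bp and held 7 regions. Of the 230 genes of 500 kb or more, 69 had at least this number. The start-site region, chr7:116029001-116041000, covered 3 coding starts and also the start of 1110004F10Rik, so its reads cannot be assigned to Sox6 alone. Its values were 55.9 and 45.7 RPM in Young, 49.5 and 40.2 RPM in Old, and 54.1 and 50.5 RPM in OldAcetate. Old overlapped Young but lay below OldAcetate. The scaled log2 changes were 0.17 (SE 0.14) in Old vs Young, and for OldAcetate -0.01 (SE 0.14) against Old and 0.16 (SE 0.14) against Young. A second region, chr7:115822501-115829000, covered the start of a single shorter coding transcript, and the starts of the other internal coding transcripts had no region.

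**Figure D3:**
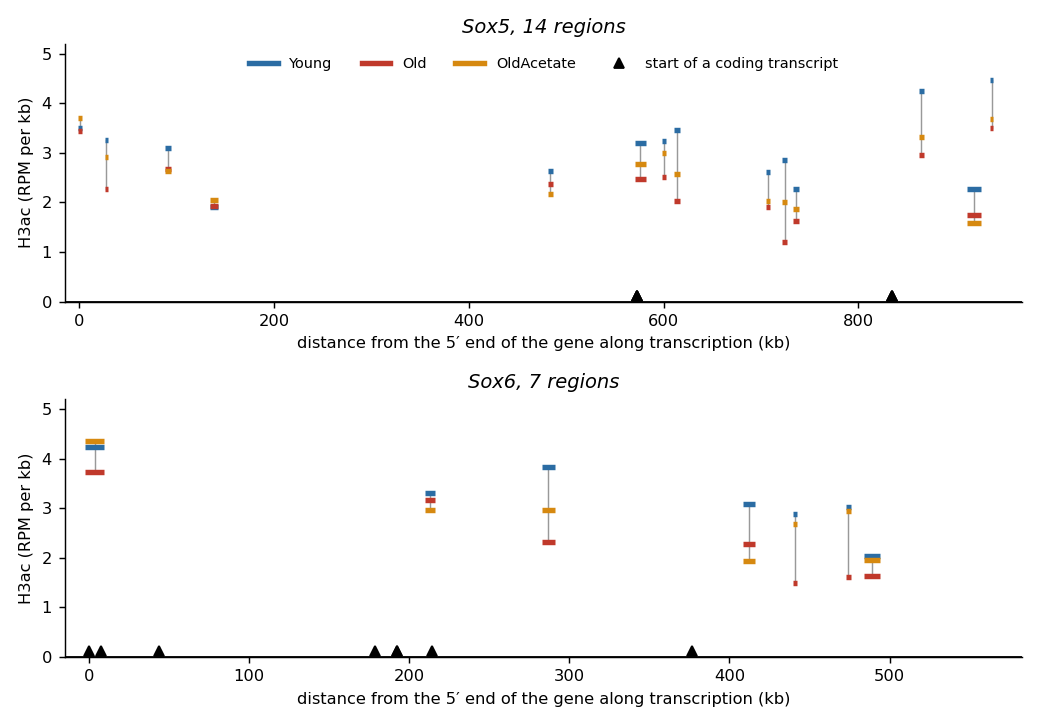
Position of the 14 Sox5 and 7 Sox6 regions along each gene (distance from the 5′ end in kb) and their mean H3ac per group (RPM per kb as deposited, n = 2). Each coloured bar spans the length of a region, and triangles on the axis mark starts of coding transcripts. The Old bar is the lowest of the 3 at most regions of both genes, and the widest gap between Young and Old lies in a Sox5 intron about 724 kb from the 5′ end.

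Among the matrix genes, Acan had 1 region, chr7:79052501-79057500, over the 5′ end of the gene but not over the later start of a second coding transcript. Its values were 13.2 and 10.6 RPM in Young, 12.9 and 11.1 RPM in Old, and 10.4 and 6.67 RPM in OldAcetate. Young and Old overlapped. Both OldAcetate libraries lay below all 4 others, the higher of them narrowly (10.4 against 10.6 RPM), on between 16 and 40 reads per library. The name of this region carries the code for Old and Young but not the one read as OldAcetate. The labels do not define the code, which is shared by 2.53% of all regions and by 0.626% of start-site regions. The region of Comp, chr8:70367501-70378500, covered the 5′ part of the gene. It gave 41.1 and 34.7 RPM in Young, 31.4 and 27.0 RPM in Old, and 34.3 and 33.4 RPM in OldAcetate. Old was the lowest group without overlap, and all 3 scaled changes were between -0.05 and -0.02 on the log2 scale (SE 0.16).

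Matn3 had a start-site region of 2500 bp, chr12:8946501-8949000. It gave 8.23 and 7.35 RPM in Young, 8.78 and 3.58 RPM in Old, and 6.05 and 5.01 RPM in OldAcetate. The Old libraries stood on either side of all others, with 19 and 9 reads, so no order of Old against the other groups could be read at this depth. The scaled log2 change in Old vs Young was -0.08 (SE 0.37), and ran from -0.61 without Old replicate 1 to 0.45 without Old replicate 2. The second Matn3 region, chr12:8969501-8975500, overlapped the end of the gene and covered the start of Wdr35.

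Most of Pth1r lay in a region of 27500 bp, chr9:110724501-110752000, which covered all 6 of its coding starts and also the start of Myl3. The values were 82.9 and 78.8 RPM in Young, 64.3 and 54.9 RPM in Old, and 80.0 and 73.8 RPM in OldAcetate. Old was clear of both other groups, and Young and OldAcetate overlapped. The scaled log2 changes were -0.09 (SE 0.11) in Old vs Young, and for OldAcetate 0.13 (SE 0.11) against Old and 0.04 (SE 0.11) against Young. The second region, chr9:110708501-110722500, overlapped the end of the gene and covered a start of Ccdc12. In GC content the Pth1r start-site region was at percentile 89.1 of start-site regions, and that of Sox5 at percentile 12.4.

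The 3 comparisons were then made over all 28 regions. They share libraries (both OldAcetate comparisons use the same OldAcetate libraries, and each shares its control libraries with Old vs Young), so each is given by its own values. After scaling, the test with limma called 0 of the 28 regions in Old vs Young at a Benjamini-Hochberg adjusted p of 0.05, where 0.00819% of all regions were called. For OldAcetate it also called 0 of 28 against Old and 0 of 28 against Young, where the share of all regions called was 0%. At an unadjusted p under 0.05 the counts were 1 of 28 (5.54% of all regions), 3 of 28 (6.24%) and 2 of 28 (5.08%). With edgeR on the recovered reads, scaled by RLE factors, no member region was called either, with 1, 3 and 2 at the unadjusted threshold. Without such factors edgeR called 5 of the 28 in Old vs Young. The shares of all regions called by edgeR are not given here, so its counts are no result about the members. The median scaled log2 change of the 28 regions was -0.05 in Old vs Young, and for OldAcetate -0.06 against Old and -0.08 against Young, beside a median over all regions of 0 within rounding. The SE of the scaled change was between 0.11 and 0.40 over the 28 regions, so a p above the threshold does not show that a region was equal in 2 groups.

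**Figure D4:**
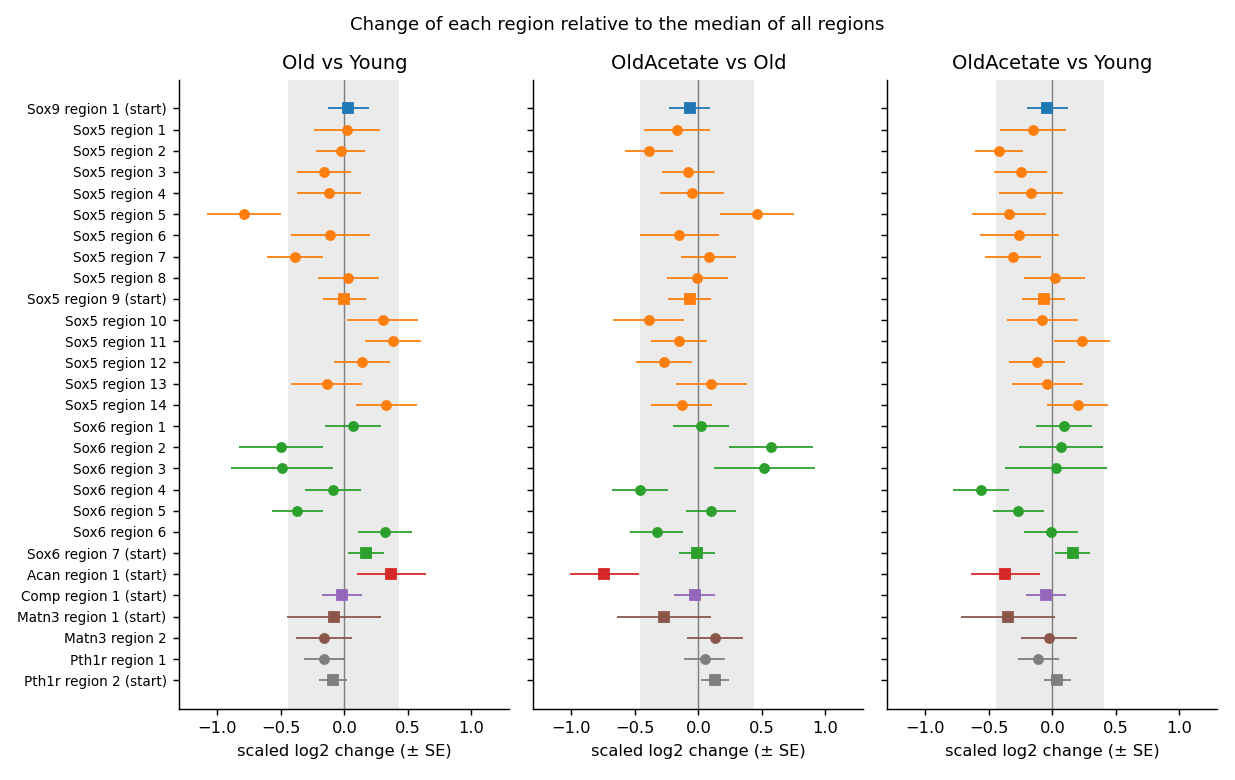
Scaled log2 change (± SE) of each of the 28 regions in the 3 comparisons, with squares for start-site regions, circles for other regions, 1 colour per gene and regions numbered along the chromosome. The grey band holds the middle 90% of all 24431 regions. Several regions lie outside the band, as some of any set would by its definition. The Sox5 intronic region 5 (-0.79) is furthest left in Old vs Young, where Sox6 regions 2 (-0.50) and 3 (-0.49) are also outside. In OldAcetate vs Old, Acan (-0.74) is furthest left and Sox6 region 2 (0.57) furthest right. The names of these Sox5 and Sox6 regions lack the code read as Old, and that of Acan lacks the one read as OldAcetate.

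In Old vs Young, the member region with the lowest p lay in a Sox5 intron, chr6:144055001-144060000. Its values were 17.4 and 11 RPM in Young, 6.47 and 5.57 RPM in Old, and 10.1 and 10.0 RPM in OldAcetate. The 3 groups did not overlap, with Old lowest and OldAcetate between the others. The scaled log2 change in Old vs Young was -0.79 (SE 0.29), with an adjusted p of 0.852 by limma, and was between -1.03 and -0.56 with any 1 library left out. In OldAcetate vs Old it was 0.46 (SE 0.29, adjusted p = 0.869 by limma). The region rests on 14 reads in each Old library and 53 in the deepest Young library, and its name carries the Young code alone, as in 4.66% of all regions. If the code names the groups in which a region was called, this one entered the table through Young. That favours a Young value above the others, so its p cannot be read as evidence of a difference. The next region was in a Sox6 intron, chr7:115748001-115756000, with 29.9 and 31.5 RPM in Young, 16.6 and 20.3 RPM in Old, and 26.9 and 20.4 RPM in OldAcetate. Its scaled log2 change in Old vs Young was -0.37 (SE 0.20, adjusted p = 0.894 by limma), and ran from -0.57 to -0.17 with 1 library left out.

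In OldAcetate vs Old, the Acan start-site region had the lowest p. Its name lacks the code read as OldAcetate (as in 7.2% of all regions), so the limit given with the Young code applies here too. On that reading the region was listed through Old and Young, which favours a low OldAcetate value. The scaled log2 change of the Acan region was -0.74 (SE 0.27, adjusted p = 0.734 by limma), and ran from -1.03 to -0.45 with 1 library left out. Against Young the same region gave -0.37 (SE 0.27, adjusted p = 0.978 by limma), with a range of -0.66 to -0.08 when 1 library was left out. The region with the next lowest p was in a Sox6 intron, chr7:115623001-115630500, with 22.7 and 23.7 RPM in Young, 19.0 and 15.1 RPM in Old, and 13.1 and 15.8 RPM in OldAcetate. OldAcetate and Old overlapped in RPM, and the scaled log2 change was -0.46 (SE 0.22, adjusted p = 0.777 by limma). The same Sox6 region had the lowest p in OldAcetate vs Young, at -0.56 (SE 0.22, adjusted p = 0.964 by limma). It was followed there by a Sox5 region of exons and introns, chr6:143856501-143870000, at -0.42 (SE 0.19, adjusted p = 0.964 by limma), or -0.62 to -0.22 with 1 library left out. This Sox5 region gave 30.9 and 30.6 RPM in Young, 24.5 and 22.7 RPM in Old, and 18.5 and 24.2 RPM in OldAcetate.

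The RPM values as given keep a shift that all regions share, and they were compared separately. Over all regions the median log2 change was -0.35 in Old vs Young, and for OldAcetate 0.24 against Old and -0.11 against Young. The member medians in the same order were -0.40, 0.18 and -0.19. In 19 of the 28 regions both Old libraries lay below both Young libraries, as in 60.2% of all regions, and in none were both above (1.29% of all). OldAcetate lay above Old without overlap in 13 of 28 regions (47.1% of all) and below it in 1, that of Acan (3.46% of all). OldAcetate lay below Young in 14 of 28 regions (29.8% of all) and above it in none (7.6% of all). The share of library reads in regions was also lowest in Old (49.9% and 45.9%), and its part in these differences was not tested. A smaller share of cells carrying the mark and less mark per cell cannot be told apart in such libraries.

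On this unscaled measure limma called 4 of the 28 regions in Old vs Young, all lower in Old, where 9.52% of all regions were called in either direction. They were the Sox5 intronic region already described (log2 change -1.14, adjusted p = 0.0168), the Sox6 intronic region chr7:115748001-115756000 (-0.72, adjusted p = 0.0249), a further Sox5 intronic region (-0.74, adjusted p = 0.0359) and the Pth1r start-site region (-0.44, adjusted p = 0.0410). The first of these carries the Young code alone. By the limit given with that code, its p cannot be read as evidence of a difference. The further Sox5 region, chr6:144165001-144171500, gave 23.0 and 22.1 RPM in Young, 13.4 and 13.1 RPM in Old, and 17.1 and 16.3 RPM in OldAcetate. It lay about 614 kb from the 5′ end of the gene, and its 3 groups did not overlap. No member region was called for OldAcetate against Old (0.311% of all regions) or against Young (0%).

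Summed over the regions of each gene, RPM as given in Old came to 72.2% of the Young mean at Pth1r, 72.4% at Matn3, 76.0% at Sox5, 77.1% at Comp, 77.3% at Sox6, 80.4% at Sox9 and 101% at Acan. Old lay below Young without overlap at 6 of the 7 genes, as at 71.5% of all 14155 genes with a region, and above it at none (0.89% of all genes). At Acan the libraries overlapped. At Sox5 the sums were 282 and 228 RPM in Young, 200 and 187 RPM in Old, and 218 and 207 RPM in OldAcetate. At Pth1r they were 126 and 113 RPM in Young, 91.1 and 81.9 RPM in Old, and 114 and 106 RPM in OldAcetate. The exact two-sided permutation test of 2 libraries against 2 gave p = 0.333 at these 6 genes other than Acan, the smallest p this design allows. OldAcetate came to between 110% and 127% of Old at 6 genes and to 71.0% at Acan. It lay above Old without overlap at 5 genes (63.3% of all genes) and below it at 1, Acan (1.58% of all genes). Against Young, OldAcetate was between 71.9% (Acan) and 91.8% (Pth1r), below without overlap at 6 genes (26.9% of all genes) and above at none (8.31%).

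**Figure D5:**
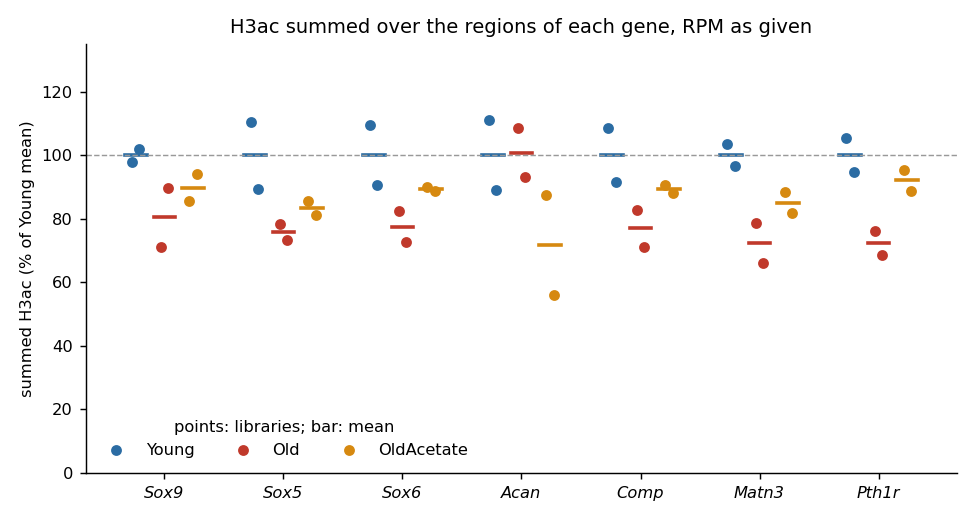
H3ac summed over the regions of each gene, as RPM in percent of the Young mean of that gene, with 1 point per library and a bar at the group mean. Old lies below Young without overlap at 6 of 7 genes, as at 71.5% of all genes with a region, and at Acan the Old mean is 101% and the OldAcetate mean 71.9% of the Young mean. The sums of Sox6, Matn3 and Pth1r include regions over starts of other genes.

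In the gene-level fit with limma, over 14155 protein-coding genes with a region, 0 of the 7 genes were called in any comparison after scaling, where 0% of all genes were called in each. The gene with the largest scaled change was Acan, with 0.37 (SE 0.27) in Old vs Young and -0.77 (SE 0.27, adjusted p = 0.796) in OldAcetate vs Old. For Sox5, summed over its 14 regions, the scaled changes were -0.03, -0.14 and -0.18 in the 3 comparisons (SE 0.07), with an adjusted p of at least 0.851 by limma. On RPM as given, Pth1r (-0.47, adjusted p = 0.00714), Sox5 (-0.39, adjusted p = 0.0105) and Sox6 (-0.37, adjusted p = 0.0202) were called lower in Old than in Young by limma, where 33.1% of all genes were called. No member gene was called in the other comparisons on this measure, where 7.52% and 0% of all genes were. The Pth1r and Sox6 sums include regions over starts of other genes, so their calls in Old vs Young cannot be assigned to them alone.

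A further 39 genes of cartilage formation, among them collagens, hedgehog pathway genes and other transcription factors, were examined by the same window. Of these, 29 had a region and 26 a start-site region, with 84 regions in all. Col9a1, Col9a3, Matn1, Chad, Snorc, Ucma, Epyc, Cytl1, Foxa2 and Gdf5 had none. After scaling, limma called 0 of the 84 regions in each comparison, and their median log2 changes were -0.04 in Old vs Young, and for OldAcetate 0.03 against Old and 0.00 against Young. On RPM as given 13 regions were called lower in Old than in Young (15.5% of the list, against 9.52% of all regions). On the same measure 1 region of Arid5b, a partner of SOX9, was called higher in OldAcetate than in Old (0.78, adjusted p = 0.0455 by limma). That was 1.19% of the list, against 0.311% of all regions.

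The 13 regions were assigned to Gli2, Gli3, Col11a1, Col11a2, Smo, Foxa3, Wwp2, Arid5b, Mef2c, Trps1 and Runx2, those of Col11a2 and Smo by the window alone. The Smo region covers the start of Ahcyl2. The Foxa3 region overlaps the gene body but covers the starts of Irf2bp1 and Mypop and not that of Foxa3. A Gli3 region among them (log2 change -1.86 on RPM as given) carries the Young code alone, so the limit given with that code applies to it. The lowest p among the 84 in the scaled fit of Old vs Young was in a region assigned to Col11a2, a chain of cartilage collagen. The region, chr17:34023001-34034500, lies outside the gene body, within the 5 kb window, and covers the starts of Ring1, H2-Ke6, Slc39a7 and Rxrb. It gave 60.2 and 49.4 RPM in Young, 30.0 and 33.0 RPM in Old, and 49.1 and 38.8 RPM in OldAcetate, with a scaled log2 change of -0.43 (SE 0.15, adjusted p = 0.808 by limma). Old was clear of both other groups. A region of Gli2, a transcription factor of the hedgehog pathway, other than the Gli2 region above, gave a scaled log2 change of 0.56 (SE 0.20, adjusted p = 0.852 by limma) in the same comparison. In OldAcetate vs Old, the lowest p belonged to Arid5b (0.54, SE 0.17, adjusted p = 0.658 by limma) and to Matn4, a matrilin (-0.67, SE 0.21, adjusted p = 0.658 by limma), whose region covers the start of Slpi. In OldAcetate vs Young, the lowest p belonged to Runx2, a factor of chondrocyte enlargement and bone formation (0.41, SE 0.18, adjusted p = 0.964 by limma), and to Gli3, a hedgehog pathway factor (-0.45, SE 0.21, adjusted p = 0.964 by limma).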

How the data were processed

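H3ac CUT&RUN libraries of cultured MSCs were compared between Young, Old and OldAcetate (n = 2 each), grouped by the labels. The authors deposited RPM values per region. The table is named for RPKM, but all values were whole multiples of the RPM of 1 read whatever the region length (tolerance 0.01), so reads and library totals were recovered. The submitters' processing notes name Bowtie2, Picard and mm10, and the region caller and any use of the added yeast DNA are not given in the sources used here. limma 3.58.1 (R 4.3.3) was fitted to log2(RPM + 0.5) of all 24431 regions after median scaling, with 6 libraries, 3 group means, eBayes with trend and robust, and Benjamini-Hochberg adjustment (threshold 0.05). Fold changes on this scale understate those of low regions. RPM summed per gene over regions within 5 kb was fitted likewise. edgeR 4.0.16 on recovered reads was an alternative. Full values are given for each start-site region (the one with the most RPM per kb) and for the called, or the 2 lowest p, regions of each comparison. The members and lists were chosen with earlier results of these data known. The fit was tested on simulated data (200 changed regions). Promoter windows came from RefSeq. Depth sets the precision, and sums of few reads carry counting error. Alternatives covered pseudocount, scaling, filter, window, threshold, block and single libraries.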

Additional observations from a re-analysis of the deposited data

How the results depend on the processing

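Scaling decided the calls. In Old vs Young, 0 member regions became 4 on RPM as given and 5 with edgeR without factors. The 0 member genes became 3 in both, and the 0 regions of the other cartilage genes became 13 and 14. On RPM as given 9.52% of all regions and 33.1% of all genes were called. No such share is given for edgeR without factors, so its counts are no result about these genes. In OldAcetate vs Old, the other cartilage genes gave 1 call on RPM as given, where 0.311% of all regions were called. The other alternatives gave 0 calls. They were pseudocounts of 0.1 and 1, quantile normalization, edgeR with TMM or RLE factors, removal of the lowest 25% of regions, eBayes without trend and robust, only the 4 compared libraries and single libraries left out, and, for the members alone, the gene body or 50 kb around it and a threshold of 0.01. On RPM as given the median change of the member regions became -0.40 in Old vs Young, and for OldAcetate 0.18 against Old and -0.19 against Young. With the lowest 25% of regions removed, which dropped the Matn3 start-site region, it was 0.00 in Old vs Young. With 1 library left out, it ran from -0.11 to -0.04, from -0.09 to 0.00 and from -0.19 to -0.03 in the 3 comparisons. Of 354 recomputed changes of start-site regions, 30 had the opposite sign to a main change that does not round to 0 (1 does, that of Sox5 in Old vs Young), and 2 passed the threshold, both at Pth1r (-0.44 and -0.45, without scaling). Replicate numbers showed no sign of paired libraries (correlations of same-numbered deviations 0.01, -0.03 and -0.04). Counting error, at a median of 31 to 56 reads per region, pulls such correlations toward 0, so pairing is not excluded. With the replicate block 0 member regions were called, with medians of -0.05, -0.06 and -0.08. Among start-site regions, depth limits the Matn3 and Acan values most, at 9 to 40 reads per library, and among all 28 a Sox6 region of exons and introns (7 to 29 reads, SE 0.40).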
